A study of Mus musculus with 48 samples.

Results

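Myelin genes of oligodendrocytes were followed as 9 genes, Mbp, Mobp, Mal, Cldn11, Cnp, Mag, Mog, Ugt8a and Ermn, in the cerebral cortex of 48 mice. The genes were taken by symbol, with no measured value in the choice, and all 9 were found among the 27082 genes of the B6 table and the 18939 genes of the APOE-TR table. The mice formed 12 groups of 4 by genotype, sex and exposure. B6 mice were wild-type C57BL/6J mice, with a labelled age of 4 months and an exposure of 8 weeks. APOE-TR mice were B6 mice in which the human APOE3 or APOE4 allele replaces mouse Apoe (E3 and E4 below), with a labelled age of 6 months and an exposure of 15 weeks. Every mouse breathed either filtered air (control) or nPM, which is re-aerosolized nano-sized particulate matter of urban air, in sessions of 5 hr, 3 times each week. The whole cortex of 1 hemisphere was homogenized, so all cell types were sampled together. Levels were not compared between B6 and APOE-TR mice, and differences in nPM response between them were not tested. Exposure, batch of nPM, duration, age and gene annotation all differed between these tables. Medians of strata from both tables are set side by side only as descriptions. Only the sex difference was tested between the tables.

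Myelin is the stack of oligodendrocyte membrane that wraps axons and speeds the action potential. Mature oligodendrocytes make it from a small set of very abundant transcripts, which rise together when precursors differentiate and remain on in the adult cortex. Oligodendrocytes are also rich in cholesterol and depend in part on lipid supply, which is one reason why APOE, the main lipid carrier of the brain, is studied beside them. Some of the genes encode proteins of compact myelin: MBP and MOBP hold the cytoplasmic faces of the membrane together, MAL is a protein of membrane sorting, and claudin-11 forms the tight junctions between layers. CNP is an enzyme of the non-compact cytoplasmic channels, MAG is the adhesion receptor that faces the axon, and MOG sits on the outermost surface. Ugt8a encodes the enzyme that makes galactosylceramide, the main glycolipid of myelin, and Ermn encodes ermin, a protein that binds actin in the outer cytoplasmic lip.

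The 250 bases before the start site are shown for 3 genes, Ugt8a and Ermn because they had the largest nPM differences in E3 females, and Mag because its levels followed the other genes least closely in APOE-TR mice. The sequences are those of RefSeq on GRCm38.p6, on the minus strand in each case, written 5′ to 3′. They cover chr3:125938653-125938902, chr2:58052865-58053114 and chr7:30914864-30915113, and for Mag, which has several RefSeq starts, the start nearest to that of the deposited table was used.
Ugt8a: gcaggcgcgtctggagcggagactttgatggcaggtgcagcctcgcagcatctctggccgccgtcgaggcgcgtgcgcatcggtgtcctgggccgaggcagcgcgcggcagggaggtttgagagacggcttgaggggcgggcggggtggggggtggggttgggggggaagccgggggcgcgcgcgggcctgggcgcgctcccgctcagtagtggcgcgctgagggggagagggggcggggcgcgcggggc
Ermn: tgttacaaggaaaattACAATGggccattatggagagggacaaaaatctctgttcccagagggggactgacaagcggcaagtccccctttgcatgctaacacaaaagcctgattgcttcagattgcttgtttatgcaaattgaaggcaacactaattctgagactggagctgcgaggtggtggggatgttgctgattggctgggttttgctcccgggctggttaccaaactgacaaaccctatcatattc
Mag: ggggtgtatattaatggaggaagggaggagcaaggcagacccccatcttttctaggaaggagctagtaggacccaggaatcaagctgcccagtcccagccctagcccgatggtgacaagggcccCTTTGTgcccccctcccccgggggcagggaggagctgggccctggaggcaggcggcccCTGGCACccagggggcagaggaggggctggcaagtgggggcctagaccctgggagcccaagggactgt
Capitals mark matches, on either strand, to 4 strings found in the binding sites of oligodendrocyte transcription factors. ACAAAG and ACAATG occur in sites of SOX factors such as SOX10, CTGGCAC in sites of MYRF, and CAGCTG is an E-box of the kind that OLIG2 binds. No string overlapped another in these windows. The Ermn window held ACAATG, 234 bases before the start. The Mag window held CTTTGT, the reverse complement of ACAAAG, 126 bases before the start, and CTGGCAC 68 bases before it. The Ugt8a window, of which 76.8% was G or C, held none of the 4 strings. Among the same 250 bases of all 32851 RefSeq windows, ACAAAG was in 16.5%, ACAATG in 10.7%, CTGGCAC in 4.19% and CAGCTG in 13%. Of the 10 windows of 8 members (all but Mbp), 4 held ACAAAG, 1 held ACAATG, 3 held CTGGCAC and 0 held CAGCTG, and windows of the same gene can overlap. These are matches of letters and say nothing of binding.

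The deposited values were CPM made by the authors, and the listed genes held 17.8 to 31.3 M (mega) recovered reads in each APOE-TR mouse and an estimated 2.05 to 24.4 M in each B6 mouse. Every member was far above the limit of detection, with at least 1050 reads in each APOE-TR mouse and at least 63 in each B6 mouse. Sex labels matched Xist and Ddx3y in all 12 groups, and mouse Apoe was low in the 8 APOE-TR groups. The E3 female controls F61 and F6 stood apart from the other APOE-TR mice. Their CPM of all listed genes summed to 880442 and 792914, against 670445 to 739008 in the other 30 mice. The length slope is how far a library's log2 levels tilted with log2 gene length. Each level was taken against the mean of the other mice of its table. The slope was -0.46 in F61 and -0.33 in F6, where the next lowest mouse, E3 nPM F55, had -0.19. Short genes were thus high relative to long genes in those 2 libraries. Results that rest on E3 female controls are therefore also given without F61 and F6, which leaves 2 control mice. In bulk RNA, fewer oligodendrocytes and less myelin RNA per oligodendrocyte cannot be told apart.

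Per kb of merged exon length, Mbp was the most abundant member in APOE-TR mice. The mean levels there, in CPM per kb over 32 mice, were Mbp 251, Mal 75.8, Cnp 73.5, Cldn11 50.2, Mog 27.1, Mobp 24.9, Mag 24.1, Ermn 18.2 and Ugt8a 10.7. All 9 lay between the 83.7 and 99.8 percentiles of the genes of that table. In the 16 B6 mice the levels per kb were Mobp 108, Mal 73.8, Mbp 73, Cldn11 35.3, Cnp 24.8, Mog 19.5, Ermn 17.2, Ugt8a 8.07 and Mag 6.57, so that Mobp came first and Mag last. The exon lengths are from GENCODE and not from the RefSeq models that the authors counted. In the APOE-TR table, on mm10, Ugt8a lies at chromosome 3, 125865343 to 125938551, Ermn at chromosome 2, 58045115 to 58052753, Mog at chromosome 17, 37010740 to 37023399, Mag at chromosome 7, 30899183 to 30914833 and Cnp at chromosome 11, 100574939 to 100581740. Mobp spans chromosome 9, 120149742 to 120176092 there but ends at 120181485 in the B6 table, so the gene models differ and levels were not compared across the tables.

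**Figure D1:**
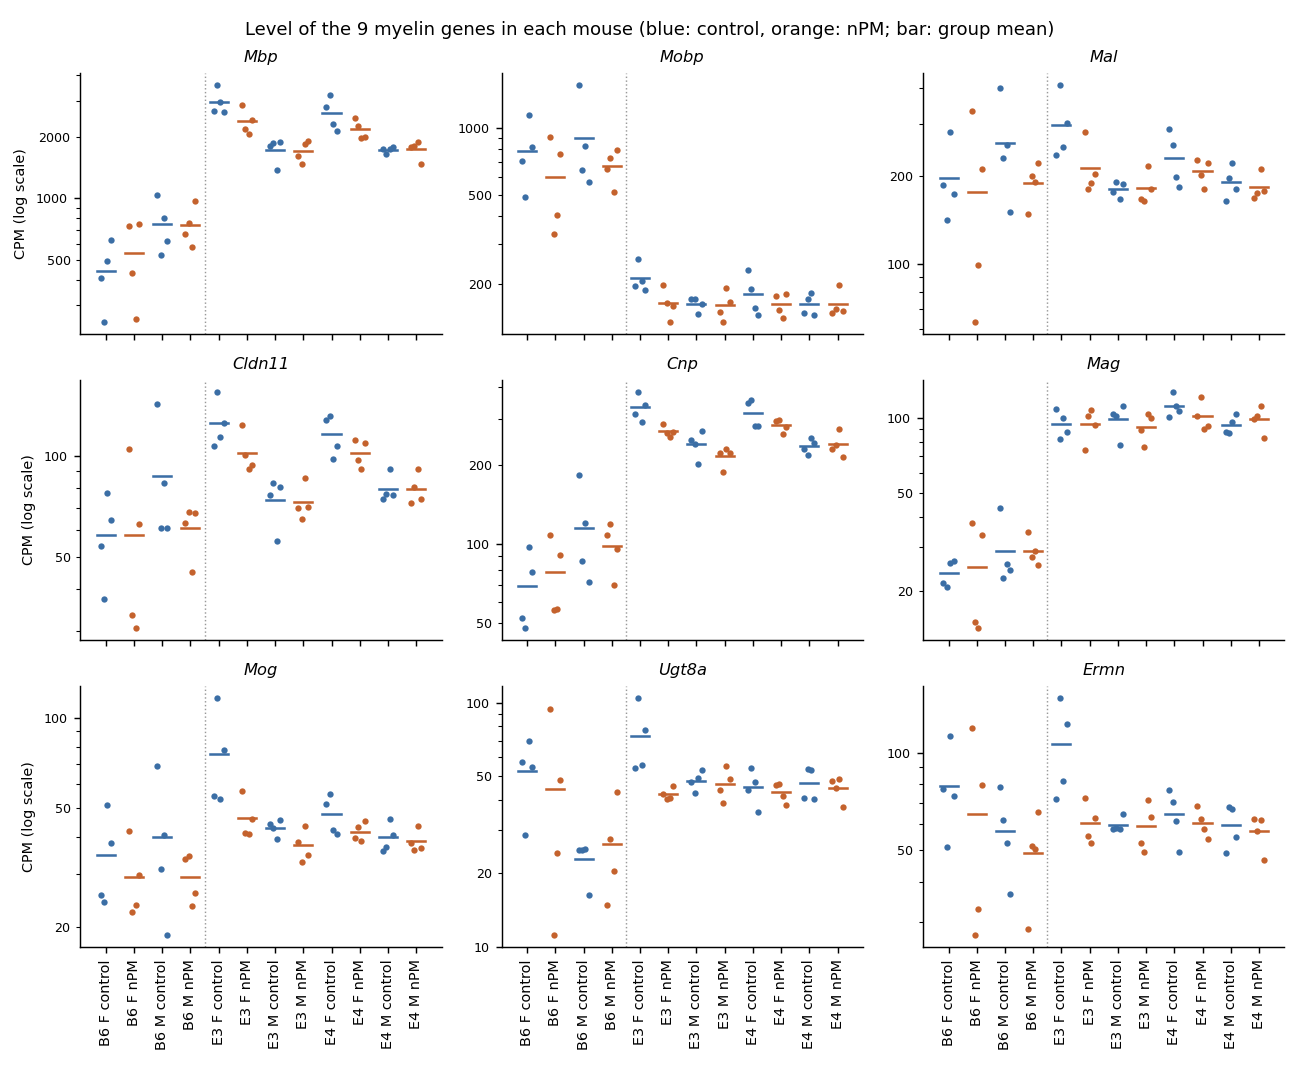
CPM (log scale) of each member in each mouse of the 12 groups, with points for mice, bars for group means, blue for control and orange for nPM, and a dotted line between B6 and APOE-TR mice, whose tables are separate. E3 female control F61 is the highest APOE-TR mouse for 8 of the genes, and Mag is the exception, with 82.0 CPM in that mouse.

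Within APOE-TR mice, the highest and lowest group means of a member differed by 1.21 to 2.02 times. Mbp, the major cytoplasmic protein of compact myelin, ran from a mean of 2959.7 ± 428 CPM (SD, n = 4) in E3 control females down to 1701 ± 203 in E3 nPM males. The order of the 8 groups was E3 control females, E4 control females, E3 nPM females and E4 nPM females, followed by the 4 male groups. Of the 7 neighbours in that order, only the last female group and the first male group had ranges that did not overlap. Cldn11 had the same order of the female groups, from 125 ± 21.4 CPM in E3 control females to 72.7 ± 9.19 in E3 nPM males, and again 1 neighbour pair that did not overlap. Mag varied least, with group means from 92.3 ± 12.2 to 112 ± 11.6 CPM, and all of its neighbours overlapped. Mog ran from 37.4 ± 4.54 to 75.5 ± 29.4 CPM, the highest mean being that of the group with F61 and F6. In B6 mice no neighbouring groups were apart for any member. How often neighbouring groups were apart among all genes was not counted. The spread between mice was wider there, for example 44.5 ± 36.7 CPM for Ugt8a in B6 nPM females and 176 ± 122 for Mal.

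The first question was whether nPM moved the myelin genes. Over all 48 mice, with terms for sex, genotype and exposure, all 9 members were lower with nPM, by small amounts, and 0 passed the study's threshold of an unadjusted p under 0.005 (limma), which 1.43% of the 11097 genes tested passed. The median log2 difference over the 9 was -0.21, against 0.0053 over all genes tested. At an unadjusted p under 0.05, which 14.6% of all genes tested had, 3 of the 9 counted: Mog, the surface antigen, at -0.25 (standard error 0.10 and limma adjusted p = 0.304), Ermn at -0.26 (standard error 0.12 and limma adjusted p = 0.314), and Mobp at -0.21 (standard error 0.10 and limma adjusted p = 0.342). The least difference was that of Mag, -0.019, with a 95% interval from -0.19 to 0.16. Mbp was at -0.045, with an interval from -0.30 to 0.21. In a fit of the 32 APOE-TR mice alone, Mog was at -0.25 and Cnp at -0.13. Without F61 and F6 the median over the members was -0.16, and 0 of the 9 had p under 0.05 (all genes 6.11%).

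Of the 6 strata, E3 females had the largest median nPM difference over the members with all mice in the fit, though not without F61 and F6. Ugt8a, the galactosylceramide synthase, was at 53.8 in F52, 105 in F61, 55.5 in F63 and 77.7 in F6 in the controls and at 42.2 in F55, 40.5 in F59, 40.6 in F67 and 45.5 in F70 with nPM (CPM). Each of the 4 nPM mice was below each of the 4 controls, and the controls spread over a wide range while the nPM mice lay close together. Its log2 difference was -0.67 (standard error 0.18 and limma adjusted p = 0.23). Ermn, the actin-binding protein of the outer lip, was at 72.0 in F52, 147 in F61, 82.0 in F63 and 123 in F6 in the controls and at 72.2 in F55, 55.3 in F59, 52.5 in F67 and 62.9 in F70 with nPM. Here F55 was above control F52, and F61 and F6 stood well above the rest. Its log2 difference was -0.69 (standard error 0.21 and limma adjusted p = 0.23). Mog was at 54.7 in F52, 116 in F61, 53.4 in F63 and 77.8 in F6 in the controls and at 56.8 in F55, 41 in F59, 40.6 in F67 and 45.9 in F70 with nPM, again with F61 and F6 on top and F55 above the lower 2 controls. Its log2 difference was -0.58 (standard error 0.22 and limma adjusted p = 0.23). Cnp, the enzyme of the cytoplasmic channels, had the smallest spread, with 315 in F52, 383 in F61, 293 in F63 and 341 in F6 in the controls and 289 in F55, 267 in F59, 257 in F67 and 268 in F70 with nPM. All 4 nPM mice were below all 4 controls for Cnp, and its log2 difference was -0.23 (standard error 0.093 and limma adjusted p = 0.23). The share of all genes whose 2 groups were apart in this way, as for Ugt8a and Cnp, was not counted.

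Unadjusted p was under 0.05 for these 4 members, and for 21% of all genes tested. For the proteins of compact myelin the log2 differences were -0.41 for Mal, -0.31 for Mobp, -0.25 for Mbp and -0.22 for Cldn11, and none of the 4 had an unadjusted p under 0.05. Mag went the other way, at 0.052 (standard error 0.17 and limma adjusted p = 0.841). Its levels were 109 in F52, 82.0 in F61, 100.1 in F63 and 87.8 in F6 CPM in the controls and 74.0 in F55, 102 in F59, 108 in F67 and 93.3 in F70 with nPM, so F61 and F6 were the lowest controls for this gene and the ranges of the groups overlapped. In all, 8 of the 9 members were lower with nPM in E3 females and 0 passed an unadjusted p under 0.005 (background 0.677% of 16394 genes). The median over the 9 was -0.31, and that over all genes tested was -0.0029. Every adjusted p was at least 0.23. These p-values measure the spread among 4 mice per group.

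The size of these differences rested on F61 and F6. Without them all 9 members were lower with nPM, the median was -0.22, and 1 of 9 had p under 0.05, against 4.86% of all genes. Ugt8a was then at -0.35 (standard error 0.10 and limma adjusted p = 0.908), Ermn at -0.33 (standard error 0.14 and limma adjusted p = 0.908), Mog at -0.22 (standard error 0.15 and limma adjusted p = 0.908), and Mal and Cldn11 at -0.19 and -0.10, so the log2 differences of these 5 genes were smaller by more than 1.5 times. Those of Mbp and Mobp, -0.23 and -0.28, were close to the values with all mice, and Mag was at -0.14. For Cnp the controls left, F52 and F63, were at 315 and 293 CPM, and the nPM mice at 257 to 289. With the length slope as a covariate in the full fit, the median over the members was -0.13. On recovered reads, the edgeR quasi-likelihood test called Ugt8a (log2 difference -0.71) and DESeq2 called Ugt8a (-0.72) and Ermn (-0.73) at the unadjusted threshold. The number of all genes called by these methods is given below only within a range over settings, so these calls have no background of their own. The part of these 2 libraries in the group difference was not tested.

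**Figure D2:**
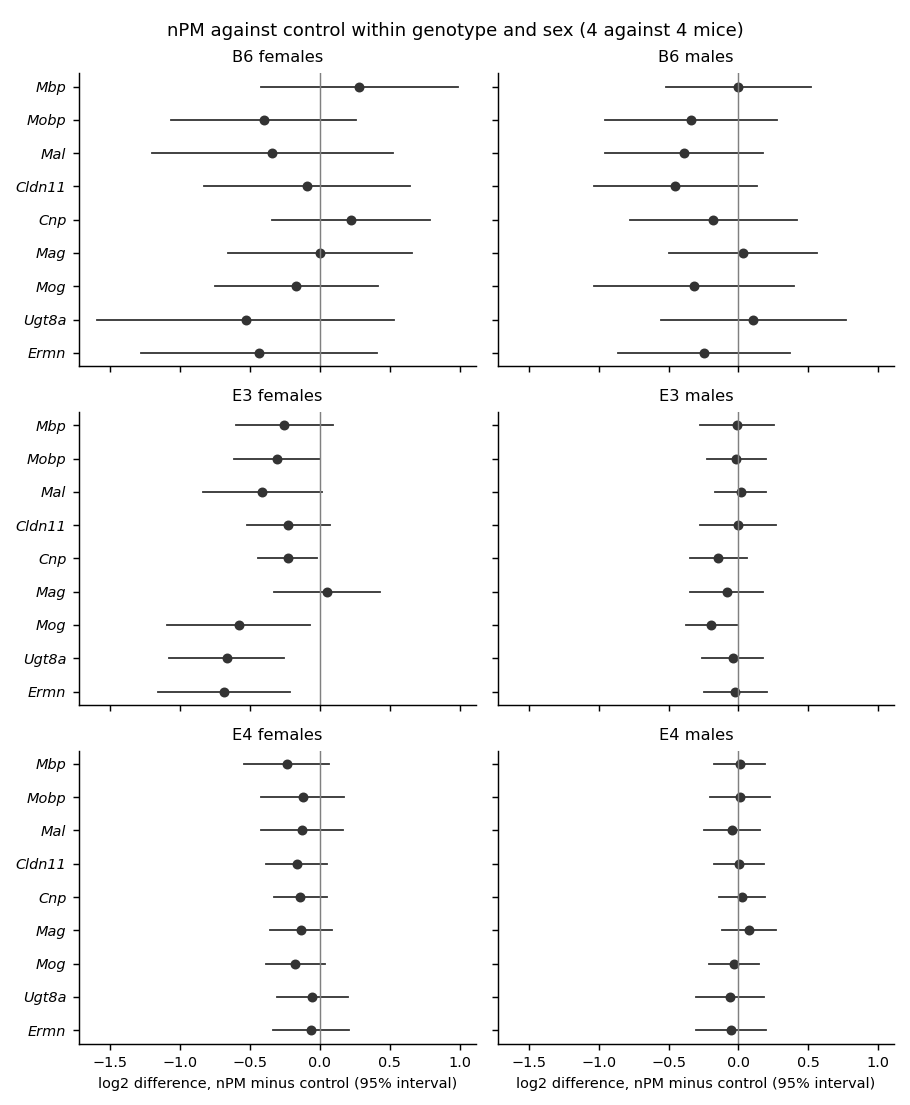
Log2 difference between nPM and control mice (points) with 95% intervals (lines) for each member in the 6 strata of genotype and sex, 4 against 4 mice in each. In E3 females Ugt8a, Ermn, Mog and Cnp have intervals below 0, and in B6 mice the intervals are the widest.

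In the other APOE-TR strata the differences were smaller. In E4 females all 9 were lower with nPM, with a median log2 difference of -0.13 and a range from -0.24 (Mbp) to -0.053 (Ugt8a). There 0 of 9 had p under 0.05, which 5.56% of all genes had, and the background of calls was 0.272%. Mbp was at 2789.9 in F7, 3204 in F21, 2304 in F26 and 2126 in F38 CPM in E4 female controls and at 2478 in F08, 2256 in F23, 1967 in F27 and 2000.2 in F39 with nPM, which overlapped. In E3 males the median was -0.022, and 0 of 9 passed (background 0.154%). Mog alone had p under 0.05, which 2.24% of all genes had, at -0.19 (standard error 0.084 and limma adjusted p = 1). Mog was at 43.9 in M51, 42.8 in M55, 39.1 in M63 and 45.5 in M73 in E3 male controls and at 38.4 in M53, 33 in M56, 43.3 in M58 and 34.7 in M76 with nPM, where M58 was the only nPM mouse within the range of the controls. Without M58, Mog was at -0.27 and passed, and the share of all genes that passed in that fit is not given here. In E4 males the median was 0.0038 and the members lay between -0.061 (Ugt8a) and 0.075 (Mag), with a background of 0.178%. The 95% interval of Mbp ran from -0.17 to 0.19 there.

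In B6 mice the medians were -0.17 in females (background of calls 1.20%) and -0.25 in males (background 0.240%). In either sex 0 of 9 members had p under 0.05, which 10.3% of all genes had in females and 4.33% in males. Both medians turned on single mice. Without control male M0 the median in males was -0.011, with Mbp, Mag, Cnp and Ugt8a above 0 and Mobp at -0.044. In females it was 0.043 without control F42, 0.049 without nPM F51 and -0.45 without nPM F50. The standard errors of the members ran from 0.24 to 0.49 there, against 0.073 to 0.22 in the APOE-TR strata. Ugt8a in B6 females was at 57.3 in F40, 28.8 in F41, 70.02 in F42 and 54.3 in F43 in controls and at 94.4 in F50, 11.2 in F51, 24.2 in F52 and 48.2 in F53 with nPM, with a log2 difference of -0.53 and an interval from -1.59 to 0.53. Mouse F50 was the highest and F51 the lowest of the 8, and both had breathed nPM. In B6 females Mbp and Cnp were higher with nPM (0.28 and 0.22) while Mobp, Mal, Ugt8a and Ermn were lower, and all intervals included 0.

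The second question was whether the human APOE allele moved the myelin genes. In the 48-mouse fit 0 of 9 members differed between E4 and E3 at 5% FDR (background 0.369% of genes), and the median log2 difference, E4 minus E3, was -0.058. In control females it was -0.17 (background 0.231%), and 0 of 9 passed. An unadjusted p under 0.05 was found for 4 of the 9 and for 41.1% of all genes, so that count is near the background. Ugt8a was at 44.0 in F7, 54.2 in F21, 47.5 in F26 and 35.5 in F38 CPM in the E4 controls, all below every E3 control except F21, which was just above E3 F52. The log2 difference of Ugt8a was -0.57 (standard error 0.20 and limma adjusted p = 0.0831), that of Ermn -0.60 (standard error 0.22 and limma adjusted p = 0.0861) and that of Mog -0.53 (standard error 0.22 and limma adjusted p = 0.109). Mag was higher in E4, at 0.31 (standard error 0.14 and limma adjusted p = 0.121). Without F61 and F6, 0 of 9 had p under 0.05 (all genes 25.1%), Ugt8a was at -0.26, Ermn at -0.25, Mog at -0.17 and Mag at 0.12, so each was smaller by more than 1.5 times. In nPM females the median was 0.023 and the members lay between -0.12 (Mog) and 0.13 (Mag), with a background of 0.145%. In males it was -0.015 for controls (background 0.439%) and 0.033 with nPM (background 0.498%). The largest difference among males was that of Cnp with nPM, 0.15 (standard error 0.081 and limma adjusted p = 0.57).

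Differences between responses were tested directly. The nPM response of E4 minus that of E3 in females was 0.62 (standard error 0.21 and limma adjusted p = 0.126) for Ugt8a and 0.63 (standard error 0.23 and limma adjusted p = 0.126) for Ermn, and 0 of 9 members passed an unadjusted p under 0.005, which 3.76% of genes passed. The same contrast in males had a median of 0.022 over the members (background 0.0313%). In E3 mice the response of females minus that of males was -0.63 (standard error 0.21 and limma adjusted p = 0.0921) for Ugt8a and -0.67 (standard error 0.23 and limma adjusted p = 0.0921) for Ermn, with 0 of 9 past the threshold and a background of 5.12%. Over all genotypes this contrast had a median of -0.13 (background 1.96%), and Ugt8a was at -0.42 (standard error 0.27 and limma adjusted p = 0.473). Without F61 and F6 the E4 minus E3 contrast of Ugt8a in females was 0.30 (standard error 0.19 and limma adjusted p = 0.728), and the contrast of sexes in E3 mice was -0.31 (standard error 0.19 and limma adjusted p = 0.782). These contrasts, the E3 female nPM comparison and the control female allele comparison all use the same 4 E3 female controls and are not separate evidence.

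After the levels had been seen, the sexes were also compared within each table. In APOE-TR mice 6 of the 9 members were higher in females at 5% FDR (limma), namely Mbp, Cldn11, Cnp, Mog, Mal and Ermn. The background was 60.4% of all genes called in either direction, so 6 of 9 called is near it and is no result about the members. By direction, 4752 of the 15972 genes tested were called higher in females and 4890 lower. The shared direction of the 6 members was not tested. Mbp was 1967 to 3568 CPM with a median of 2447 in the 16 females and 1369.8 to 1897 CPM with a median of 1780.2 in the 16 males, so every female was above every male. Cldn11 was 91.3 to 155 CPM with a median of 108 in females and 55.7 to 91.1 CPM with a median of 76.3 in males, where again the lowest female was just above the highest male. Every female was above every male for 3.63% of genes tested. The log2 differences, females minus males, were 0.53 (standard error 0.067 and limma adjusted p = 1.5e-07) for Mbp, 0.52 (standard error 0.063 and limma adjusted p = 5.9e-08) for Cldn11 and 0.35 (standard error 0.047 and limma adjusted p = 4.5e-07) for Cnp. Ugt8a (0.065), Mag (0.052) and Mobp (0.12) did not pass. Without F61 and F6, 5 of the 9 were called, all higher in females, where 57.7% of all genes were called. In that fit 8 of the 9 were higher and 1 lower, and the median was 0.23 in place of 0.33.

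Several properties of the libraries moved with sex in APOE-TR mice. The females had 17.8 to 22.3 M reads and the males 22.4 to 31.3 M. The length slope was at most 0.02 in females and at least 0.053 in males, again with no overlap. With the length slope as a covariate the median over the members was -0.0033 in place of 0.33, and Mog, Mal, Ugt8a and Ermn had negative values (-0.11, -0.0033, -0.28 and -0.19). Mbp was at 0.33 with the covariate and at 0.53 without it. All 7 endothelial genes were lower in females at 5% FDR, with a median log2 difference of -1.38. Sex and these properties of the libraries cannot be told apart. In B6 mice the order of the sexes was the other way for Mbp, which was 249 to 749 CPM with a median of 461 in the 8 females and 527 to 1040.1 CPM with a median of 713 in the 8 males, with a log2 difference of -0.68 (standard error 0.22 and limma adjusted p = 0.0287). It was the only member called (background 26.1%), and Ugt8a was at 0.78 (standard error 0.32 and limma adjusted p = 0.0753). The sex difference of APOE-TR minus that of B6 was called for 4 of 9 members, at 1.27 for Mbp, 0.98 for Cldn11, 0.96 for Cnp and 0.76 for Mal. The background was 50.4% in either direction.

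**Figure D3:**
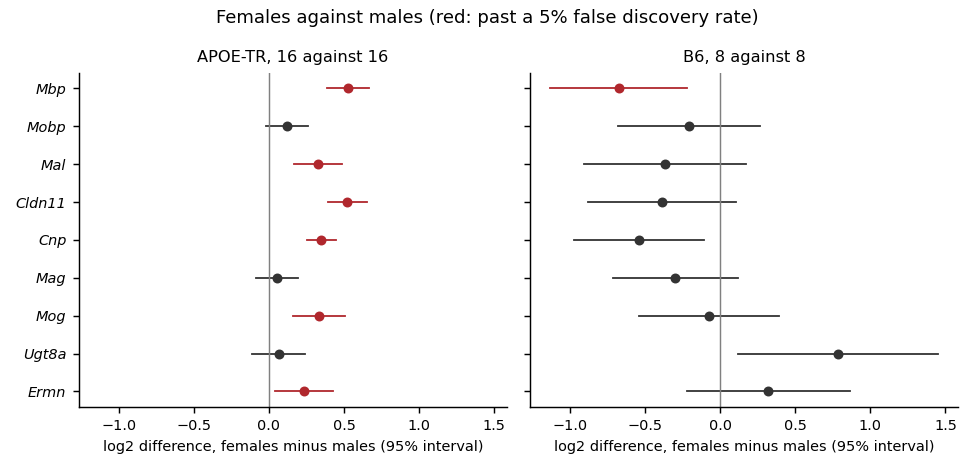
Log2 difference between females and males (points) with 95% intervals (lines) for each member, in APOE-TR mice (left) and B6 mice (right), red where past 5% FDR. With F61 and F6 in the fit, the points of APOE-TR mice all lie above 0, from 0.052 (Mag) to 0.53 (Mbp), and 7 of the 9 in B6 mice lie below 0.

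Among APOE-TR females the mean log2 level of the members was mostly higher where the length slope was lower, as the plot of level against slope shows. Males, with higher slopes, mostly had lower means. Among males alone the level did not follow the slope. M63 had the highest male slope, 0.14, with a mean of -0.32, M58 had 0.12 with 0.032, and M55 the lowest, 0.053, with -0.081. F61 had the steepest slope and the highest mean, 0.67 above the mean over the 32 mice. The lowest mean, -0.38, was in E3 nPM male M56, with a slope of 0.10. The merged exon lengths of the members run from 1704 bases (Mog) to 8469 (Mbp), so they do not share a length. Other cell type markers were also measured in the E3 females. The 7 microglial genes summed to 459 CPM in F61 and 399.8 in F6, 343 and 327 in the other controls, and 239 to 325 with nPM. Of the 7, 6 were lower with nPM, 0 passed, and their median log2 difference, -0.60, was larger in size than that of the members. All 7 were lower without F61 and F6, with a median of -0.35. The 7 striatal genes, which mark tissue below the cortex, summed to 309.9 to 1220.4 CPM in the controls and 468 to 745 with nPM, and none of the 7 was called. Without F61 and F6 all 7 were lower with nPM and 6 were called (all genes 0.522%), with a median of -1.01. The 2 controls left in that fit, F52 and F63, had striatal sums of 1220.4 and 1123 CPM. The 7 neuronal genes had a median of -0.18 and the 7 astrocyte genes one of -0.28, and both were above 0 without F61 and F6 (0.051 and 0.0094). The part of other cells, of dissection and of the libraries in the myelin result was not tested.

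**Figure D4:**
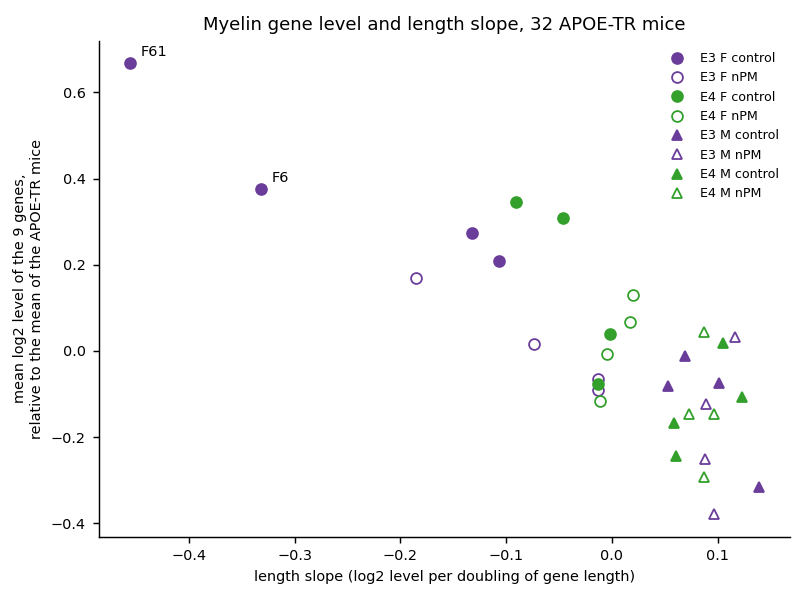
Mean log2 level of the 9 members in each APOE-TR mouse, relative to the mean over the 32 mice, against the length slope of its library, with circles for females, triangles for males, filled for control and open for nPM. F61 and F6 lie at the upper left, females in the middle and males at the right.

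Another 36 genes of the oligodendrocyte lineage were counted by role. In E3 females 24 of the 36 were lower with nPM, 1 passed in that direction and 0 in the other, with a median of -0.21. The gene that passed was Car2, carbonic anhydrase of oligodendrocytes and other cells, which averaged 199 ± 44.9 CPM in controls and 128 ± 9.93 with nPM (SD, n = 4), with no overlap, and a log2 difference of -0.55 (standard error 0.14 and limma adjusted p = 0.23). It was at -0.34 (standard error 0.11 and limma adjusted p = 0.908) without F61 and F6, and did not pass. The share of all genes without overlap between these groups was not counted. Of 9 other myelin proteins all 9 were lower and 0 passed, and the smallest p were those of Bcas1, at -0.61 (standard error 0.17 and limma adjusted p = 0.23), and Tmem125, at -0.51 (standard error 0.15 and limma adjusted p = 0.23). Among 5 lipid enzymes Aspa, which releases acetate from N-acetylaspartate, was at -0.83 and Cers2, a ceramide synthase, at -0.21. The 3 gap junction genes were all lower, with Gjc3 at -0.33 and Gjb1 at -0.55. Among 3 genes of axon contact, Ninj2 was at -0.63 while Cntn2, a contactin, was at 0.84. Lpar1, a lysophosphatidic acid receptor, had the second smallest p of the 6 carriers and receptors, at -0.52. Of 6 transcription factors 4 had higher values and 2 lower ones, with Nkx6-2 at -0.46 and Myrf at 1.02, and of 4 genes of precursor and newly formed cells 3 were higher, with Cspg4 at 0.59 and Gpr17 at 0.67. None of these other genes passed. In the fit that left out F61 and F6, 30 of the 36 were lower and 0 passed, with a median of -0.21. The transcription factors were then 1 higher and 5 lower, with Nkx6-2 at -0.22 and Myrf at 0.038, and the precursor genes 1 higher and 3 lower, with Cspg4 at 0.11 and Gpr17 at -0.068. All 9 myelin proteins were still lower, with Bcas1 at -0.42 and Tmem125 at -0.31, while Aspa was at -0.32, Cers2 at -0.11, Gjb1 at -0.40, Ninj2 at -0.39, Cntn2 at 0.20 and Lpar1 at -0.30.

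Over all 48 mice, 26 of 34 lineage genes tested were lower with nPM, with a median of -0.086, and 1 passed, in the other direction. This was Cspg4, the NG2 proteoglycan of precursors and pericytes, at 0.37 (standard error 0.12 and limma adjusted p = 0.302). It was at 0.30 (standard error 0.12 and limma adjusted p = 0.778) without F61 and F6 and did not pass. In E3 males Opalin, a transmembrane protein of myelin, passed at -0.45 (standard error 0.12 and limma adjusted p = 1), the only lineage gene to do so in that stratum. By allele, Ninj2, a cell adhesion protein of glia induced by nerve injury, was lower in E4 at 5% FDR in 3 of the 4 strata. The log2 difference was -1.28 (standard error 0.17 and limma adjusted p = 0.0284) in control females, and -1.03 (standard error 0.16 and limma adjusted p = 0.035) there without F61 and F6. It was -0.76 (standard error 0.12 and limma adjusted p = 0.0211) in control males and -0.65 (standard error 0.10 and limma adjusted p = 0.0138) in nPM males. In nPM females it was at -0.78 (standard error 0.13 and limma adjusted p = 0.0665) and did not pass. Ninj2 was low, so the 0.5 added to each CPM makes these log2 differences smaller in size than those of the CPM. In control females, for example, it averaged 2.22 CPM in E3 and 0.570 CPM in E4. Its range was 1.62 to 3.12 CPM in E3 control females and 0.903 to 1.41 CPM in E3 nPM females. Among E3 males it was 1.13 to 1.59 CPM in controls and 1.00 to 1.36 CPM with nPM. In the E4 groups it was at 0.413 to 0.754 CPM, 0.393 to 0.636 CPM, 0.458 to 0.803 CPM and 0.448 to 0.610 CPM in the same order. Every E4 mouse was thus below every E3 mouse, at 10 or more reads in each, and the share of all genes with such a gap was not counted. With all mice in the fits, it was the only one of the 36 lineage genes called by allele in these 4 strata. Without F61 and F6, which leaves 2 E3 controls, 1.85% of all genes were called by allele in control females. Cntn2 and Myrf, the latter a transcription factor of myelination, were also called in that fit, higher in E4. They were at 0.48 (standard error 0.10 and limma adjusted p = 0.0482) and 0.51 (standard error 0.089 and limma adjusted p = 0.0397). None of the 9 members was called in these fits.

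Within groups the members varied together from mouse to mouse. After the mean of each group was taken away, the median Pearson r over the 36 pairs was 0.62 in the 32 APOE-TR mice and 0.80 in the 16 B6 mice. These are descriptions of mice that share tissue dissection and library depth, and no test was made. In APOE-TR mice the closest pair was Ugt8a and Ermn (0.88), followed by Mal with Mog (0.85) and with Mobp (0.85). Mag stood out, with a median r of 0.025 over its 8 pairs against 0.69 over the other 28. Without the E3 female controls these medians were 0.25 and 0.72. In B6 mice Mag was not apart (0.77 against 0.82). In B6 mice the closest pairs were Mobp and Cldn11 (0.96), Cnp and Mog (0.96) and Mal and Ermn (0.96), and the loosest was Mog and Ugt8a (0.51).

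**Figure D5:**
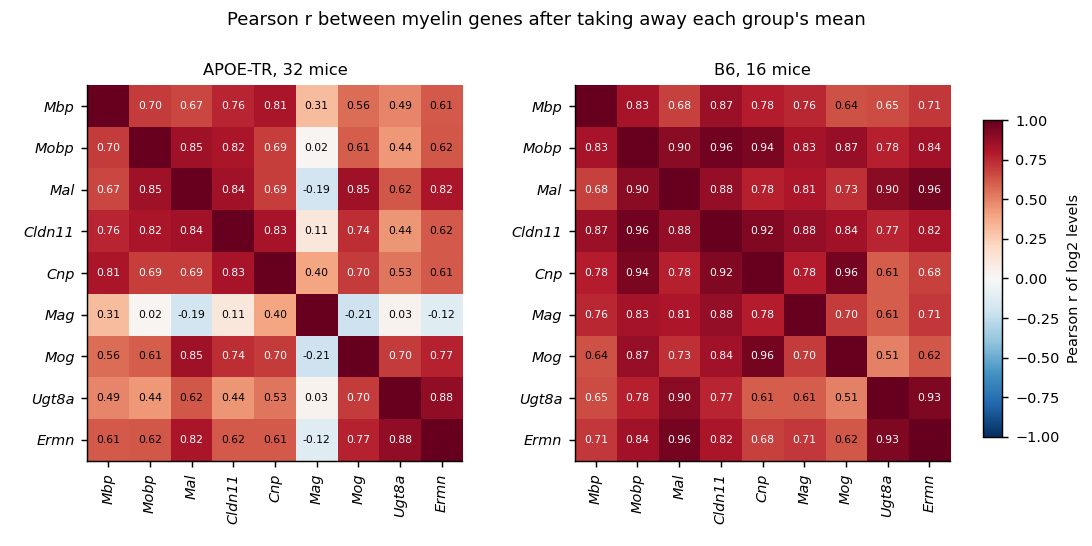
Pearson r between the log2 levels of each pair of members after each group's mean was taken away, in 32 APOE-TR mice (left) and 16 B6 mice (right), from blue (-1) through white (0) to red (1), with the diagonal left unlabelled. The Mag row is pale in APOE-TR mice, between -0.21 and 0.40, and red in B6 mice.

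Among the genes whose levels within groups were most like the mean of the members were, over 32 APOE-TR mice and 15972 genes, Bcas1 (r = 0.86), Gatm (0.84), Plekhb1 (0.83) and Tspan15 (0.82). Over 16 B6 mice and 13916 genes they included Gpr37 (0.96), Bcas1 (0.96), Evi2a (0.95) and Tmem88b (0.93). Bcas1, which marks oligodendrocytes that are building myelin, was on each list. The mean level of the members in B6 mice ran from -0.89 (nPM female F51) to 0.87 (control male M0) on the log2 scale, and in APOE-TR mice from -0.38 to 0.67. The striatal genes summed to 339.9 CPM in B6 F51 and 1885 in B6 M0, and ran from 97.0 to 1885 over the 16 B6 mice.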

How the data were processed

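Cerebral cortex RNA of 48 mice was sequenced as stranded mRNA libraries and single-end reads, which the authors aligned to mm10 with TopHat2 2.0.8b in Partek Flow, keeping uniquely mapped reads with at most 3 mismatches. The deposited values are CPM per gene and mouse, made by the authors in separate tables for the B6 (27086 listings) and the APOE-TR exposure (18943), and the scaling step is not given in the sources used here. In APOE-TR mice, whole reads were recovered by dividing by each mouse's lowest value (the value of a gene without reads) and taking away 1, which gave a whole number, within 0.1, for 95.3% to 96.3% of the low values. B6 reads are estimates only. Listings with a repeated symbol (4 in each table) were left out. Among the APOE-TR columns, that of E3 female control F6 matches no sample title and was used by its group. Groups came from the sample labels.

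CPM were rescaled by TMM (edgeR 4.0.16) within each table and tested as log2(CPM + 0.5) with limma 3.58.1 in R 4.3.3 (eBayes with a trend) over all genes above the value of 0 reads in every mouse of a fit, with Benjamini-Hochberg adjustment. A log2 difference on this scale understates that of low genes, and does so most where CPM is near the added 0.5, as for Ninj2. As in the study, nPM calls took an unadjusted p under 0.005 and allele calls a 5% FDR. Fits of 8 mice compared 4 with 4, all 48 mice were fitted with sex, genotype and exposure as terms, and responses were contrasted over 8 or 12 group means. All tests are two-sided. The counts over the members are descriptions with no test of their own. The genes named were the 9 members in each of 16 comparisons, the 2 genes with the smallest p in each role list for E3 females, other lineage genes that passed, and the 5 genes most like the members in each table, of which 1 is not reported here. The members and lists were chosen with earlier results of these data known. The 3 comparisons of sex and the fits without F61 and F6 were added after the data had been seen. Alternatives were no TMM, DESeq2 size factors, pseudocounts of 0.1 and 2, testing unfiltered genes or those with 10 or more reads per mouse, voom, edgeR quasi-likelihood and DESeq2 1.42.0 on recovered reads (APOE-TR fits only), voom with ComBat (sva 3.50.0), a length-slope covariate, subsets by table and each mouse left out. The fits were tested on simulated data. Gene positions are as deposited.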

Additional observations from a re-analysis of the deposited data

Results flagged for a closer look

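Single mice far from the other 3 of their group were looked for over 108 pairs of a member and a group, and 6 were found by Dixon's ratio at its 95% critical value, where chance would give about 5.4. Mbp was lowest in E3 M63 (control), at 1369.8 CPM, where the other 3 mice of the group had 1804 to 1881. Mag was highest in B6 M0 (control), at 43.4 CPM, where the other 3 mice of the group had 22.5 to 25.8. Mobp was highest in E4 M65 (nPM), at 197 CPM, where the other 3 mice of the group had 148 to 154. Cldn11 was lowest in B6 M12 (nPM), at 45.0 CPM, where the other 3 mice of the group had 63.1 to 68.1. Cldn11 was highest in E4 M32 (control), at 91 CPM, where the other 3 mice of the group had 74.5 to 77.0. Ugt8a was lowest in B6 M6 (control), at 16.2 CPM, where the other 3 mice of the group had 24.9 to 25.2.

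The sex difference of APOE-TR mice minus that of B6 mice passed 5% FDR (limma) for 4 members, at 1.27 for Mbp, 0.96 for Cnp, 0.76 for Mal and 0.98 for Cldn11 on the log2 scale, and 50.4% of all genes passed. Age, duration of exposure, library depth and annotation differ between the tables and cannot be told apart from genotype.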

How the results depend on the processing

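In the 16 planned comparisons 0 members were called, and this count was other than 0 only as follows. The number of all genes called also changed with the setting, as the ranges later in this paragraph show. With 1 mouse left out it reached 6401 for control females by allele. The share of all genes called in each single fit is not given here. The member counts that follow thus have no background of their own and are no result about the members. In E3 females edgeR called 1 member and DESeq2 2, and leaving out 1 mouse gave 0 to 2 (2 without control F52, 1 without control F63). In E3 males leaving out 1 mouse gave 0 to 1 (1 without nPM M58). For control females by allele DESeq2 called 2 and leaving out 1 mouse gave 0 to 3 (3 without E3 F52). For the E4 minus E3 response of females edgeR and DESeq2 called 1 each, and leaving out 1 mouse gave 0 to 2 (2 without E3 F52, 1 without E3 F63, E4 F21 or E4 F39). For the female minus male response in E3, 1 was called with no TMM, 2 by edgeR and 2 by DESeq2, and leaving out 1 mouse gave 0 to 2 (2 without E3 F52, F63 or M56, 1 without E3 F55 or E4 F38). With the length slope as a covariate the median over the members was -0.13 in E3 females, 0.033 in control females by allele, 0.018 for the E4 minus E3 response of females, -0.087 for the response by sex in E3 and -0.0033 for the sexes of APOE-TR mice, where Mog (-0.11), Mal (-0.0033), Ugt8a (-0.28) and Ermn (-0.19) changed sign. In B6 mice, members called by sex were 0 with no filter, 2 with at least 10 reads and 0 with the length slope, and 0 to 2 with 1 mouse left out. For the sex difference of APOE-TR minus B6 it was 1 with the length slope and 4 to 7 with 1 mouse left out. The causes were not tested. Of 1719 member values under other settings, 1601 kept their side of the threshold and moved by less than their standard error in the main fit. So did 3660 of 3744 with 1 mouse left out. A change of sign within that error, in a gene not called, was counted as kept. Genes called, and their range over alternatives, were 159 in the 48-mouse nPM fit (40 to 191 (leave-one-out 81 to 238)), 177 in B6 females (173 to 185 (leave-one-out 76 to 321)), 37 in B6 males (28 to 60 (leave-one-out 13 to 284)), 111 in E3 females (87 to 466 (leave-one-out 29 to 296)), 26 in E3 males (18 to 35 (leave-one-out 12 to 74)), 45 in E4 females (21 to 84 (leave-one-out 15 to 88)), 30 in E4 males (24 to 122 (leave-one-out 15 to 88)), 41 in the 48-mouse allele fit (29 to 948 (leave-one-out 32 to 59)), 38 in control females by allele (21 to 4156 (leave-one-out 15 to 6401)), 24 in nPM females by allele (14 to 111 (leave-one-out 21 to 34)), 74 in control males by allele (61 to 140 (leave-one-out 41 to 59)), 84 in nPM males by allele (44 to 211 (leave-one-out 53 to 104)), 601 in the E4 minus E3 response of females (171 to 856 (leave-one-out 212 to 3272)), 5 in that of males (3 to 13 (leave-one-out 4 to 17)), 818 in the female minus male response in E3 (87 to 1227 (leave-one-out 251 to 3941)), 217 in that over all genotypes (57 to 277 (leave-one-out 131 to 531)), 3627 in the sexes of B6 (1269 to 3666 (leave-one-out 2821 to 3921)), 5596 in the sex difference of APOE-TR minus B6 (3787 to 6754 (leave-one-out 5370 to 5859)). Without TMM, genes called higher went from 106 of 177 to 78 of 185 in B6 females, 21 of 30 to 18 of 31 in E4 males, 269 of 601 to 333 of 608 for the E4 minus E3 response of females, 472 of 818 to 372 of 821 for the response by sex in E3 and 105 of 217 to 78 of 246 for that over all genotypes. The B6 mice, at 2.05 M estimated reads or more, had the widest spread. edgeR and DESeq2 were not run with B6 mice, whose reads are estimates. No paired analysis was made, because each mouse was a separate animal in 1 group and the labels give no pairs.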

Other observations

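The group order depended on how the members were combined. As a mean of standardized log2 levels, in SD units with each gene weighted equally, the APOE-TR groups ran from 1.30 ± 0.65 (SD, n = 4) in E3 control females and 0.58 ± 0.75 in E4 control females to -0.0034 ± 0.37 in E3 nPM females and 0.075 ± 0.40 in E4 nPM females. As a sum of CPM, which Mbp dominates, the same groups were at 4277, 3719, 3366 and 3178 CPM, so E3 and E4 nPM females changed places. The male APOE-TR groups were at 2635, 2634, 2567 and 2637 CPM (E3 control, E4 control, E3 nPM and E4 nPM). In B6 mice the sums were 2255 CPM in control males, 1898 in nPM males, 1745 in control females and 1619 in nPM females.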
